A study of Mus musculus with 15 samples.

Results

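Endocardial cells, the endothelium that lines the chambers of the heart, were singled out from single-cell transcriptomes of whole hearts of mouse embryos at E14.5. They were chosen by their UMIs, the molecular identifiers that count captured RNA molecules. A barcode had to have at least 300 detected genes and under 2% of its UMIs from the cardiomyocyte genes Actc1, Tnnt2, Tnni1, Tnnc1, Myl4, Myl7 and Ttn. It also had to hold at least 2 UMIs over the endothelial genes Pecam1, Cdh5, Emcn, Egfl7 and Eng, and at least 1 UMI over the endocardial genes Npr3, Ednrb, Klhl4 and Gpr126. That endocardial sum had to exceed the sum of the vascular genes Fabp4, Aplnr, Cd36 and Apln and the sum of the valve genes Hapln1 and Edn1. The rule took 5115 cells, 2922 of them from knockout (KO) and 2193 from wild-type (WT) hearts, out of 50899 barcodes with at least 300 genes and 55152 barcodes in all. Barcodes that passed the same steps but were led by the vascular or the valve sum are called vascular (1146 cells) and valve (918 cells) endothelial cells below, and 1028 further endothelial barcodes fell in no class.

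The study used Drop-seq, in which single cells are captured with barcoded beads in droplets and polyadenylated RNA is read from its 3′ end, to compare hearts with and without the secreted metalloprotease Adamts19. All 15 libraries were made from C57BL6/N embryos. The 8 KO libraries are homozygous for a knockout allele. KO replicates 5 to 8 carry the tm4b allele and come from litter 7. KO replicates 1 to 4 carry the tm4a allele, with replicate 1 from litter 5 and replicates 2 to 4 from litter 6. The 7 WT libraries come from litter 1 (replicates 1 and 2), litter 2 (3 and 4), litter 3 (5) and litter 4 (6 and 7). All KO libraries and WT replicate 5 were sequenced on a shared flow cell, and the other WT libraries on other flow cells. Within any litter only a single genotype and a single allele occur, so genotype and litter, and allele and litter, cannot be told apart. The sources used here tell neither how many embryos entered a library nor which part of Adamts19 is missing, so p-values measure the spread between libraries.

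As background, the endocardium arises in contact with the myocardium and signals to it through neuregulin and Notch ligands, and at the valve cushions some of its cells turn into mesenchyme. It feels blood flow directly, and Klf2 is among the genes that flow induces. Endocardial cells sit between endothelin and natriuretic peptide signals: Ece1 cleaves the endothelin precursor to its active form, Ednrb is a receptor for endothelins, Npr3 clears natriuretic peptides, and the ligand Nppa is made mainly by cardiomyocytes.

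The libraries held 5477109 to 10105950 UMIs in KO and 6215439 to 11340443 in WT. Endocardial cells numbered 185 to 450 per KO library and 243 to 372 per WT library, and their summed UMIs ran from 399286 to 1278642 in KO and from 634703 to 1094272 in WT libraries. The median endocardial cell held 1818 UMIs in KO and 2193 in WT hearts. Mitochondrially encoded RNA made up 1.78 to 3.34% of endocardial UMIs in KO and 1.61 to 4.40% in WT libraries, with WT replicates 3 and 4 highest. Haemoglobin RNA made up 0.0762 to 0.714% in KO and 0.0394 to 2.66% in WT libraries, with WT replicate 4 highest. Of the barcode sequences, 87 occurred in more than 1 library, and 18 endocardial cells (0.352%) carried such a sequence.

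The targeted gene was read first. Adamts19 had 0 UMIs in the 2922 endocardial cells of KO hearts, which allows a share of cells with a UMI of up to 0.103% (3 cells of the total; exact 95% upper limit 0.126%), and 41 UMIs in 29 of 2193 cells of WT hearts (1.32%, exact 95% binomial interval 0.887 to 1.89%, which covers counting error only). In CPM, the UMI count scaled to the total of the cells summed, the level was 0 in every KO library. It was 0 in WT replicate 6 and 4.48 to 12.5 CPM in the other 6 WT libraries. Haemoglobin-rich WT barcodes, which should lack the gene, had a UMI in 6 of 314 (1.91%, interval 0.704 to 4.11%) at a median of 2114 UMIs, against 2193 in the WT endocardial cells. The intervals overlapped, so the endocardial share is not read as expression, and whether it was background was not tested. In valve endothelial cells the share was 1.72% in KO (9 of 522, interval 0.791 to 3.25%) and 6.06% in WT (24 of 396, 3.92 to 8.88%), so the libraries labelled KO were not free of Adamts19 UMIs. In vascular endothelial cells it was 0.420% in KO (3 of 714) and 0.231% in WT (1 of 432). The LacZ feature, counted with the mouse genes, had 13 UMIs in 12 KO endocardial cells (0.411%) and 0 in WT.

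The label was checked against its markers. Ednrb carried most of the gate: it made up 52.8% of the UMIs of the 4 endocardial genes and was seen in 85.8% of the cells. Npr3 was seen in 68.9%, Klhl4 in 60.2% and Gpr126, an adhesion G protein-coupled receptor, in 54.8% of cells. After each cell was thinned to 1000 UMIs, which 4034 cells reached, the shares were 75.8% for Ednrb, 49.95% for Npr3, 40.7% for Klhl4 and 37.6% for Gpr126. All 4 genes were seen in 29.5% of cells, and only 1 of them in 17.2%. These values chose the cells and are a description. In GRCm38 coordinates of the GENCODE annotation, the 4 gate genes lie at chr14:103814625-103844402 (Ednrb, minus strand), chr15:11839896-11907287 (Npr3, minus), chrX:114474333-114560829 (Klhl4, plus) and chr10:14402583-14545659 (Gpr126, annotated there as Adgrg6, minus).

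Most cells lay well inside the threshold on gate UMIs. Of the members, 4183 (81.8%) held 3 or more gate UMIs, while 9.11% held exactly 1 and 626 (12.2%) led the vascular and valve sums by a single UMI. Just outside, 947 barcodes would have passed with 1 more endothelial UMI, and 230 were kept out by their cardiomyocyte share, 97 of these with 2 to 3%. Among members, 685 (13.4%) had exactly 2 endothelial UMIs, and 114 had a cardiomyocyte share of 1 to 2%. UMIs of other cell types or haemoglobin, past the limits of an alternative fit, were held by 2125 members (41.5%).

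Set against vascular endothelial cells of the same hearts, endocardial cells had higher levels of surface, matrix and transcription factor genes such as Plvap, Cdh11, Igfbp5 and Foxc1, and lower levels of genes such as Sparcl1, Cldn5 and Kdr. The comparison is a description with no test, because the rule chose the cells on their UMIs. Levels are CPM after thinning every cell to 1000 UMIs, which left 24 to 92 vascular cells per library, so vascular levels near 0 rest on few UMIs. Of 4536 genes with a mean of at least 50 CPM in either class, 238 (5.25%) were higher in endocardial cells in all 15 libraries and 205 (4.52%) were lower in all 15. Plvap, which forms the diaphragms of endothelial fenestrae and is not in the rule, had a median of 404 CPM (190 to 519) in endocardial cells and 16.7 CPM (0 to 71.4) in vascular cells. The ranges of the classes did not overlap.

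Other genes that led towards the endocardium were the adhesion molecule Cdh11, the growth factor binding protein Igfbp5 and the lipid carrier Apoe. Cdh11 had a median of 780 CPM (455 to 1155) in endocardial and 40.0 CPM (0 to 93.0) in vascular cells. Igfbp5 had 2263 CPM (1579 to 2854) in endocardial and 208 CPM (97.6 to 935) in vascular cells. Apoe had 2369 CPM (1546 to 4278) in endocardial and 200 CPM (40.0 to 2042) in vascular cells. Each of the 3 was higher in endocardial cells within all 15 libraries, although the ranges of Apoe over libraries overlapped. Of the endocardial markers outside the gate, 10 of 13 measured were higher in all 15 libraries. Their list median difference was 2.18 on the log2(CPM + 10) scale, beside 0.02 over all genes. Against valve endothelial cells, only 5 of the 14 then measured were higher in all 15 libraries, with a list median of 0.21.

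Of the 21 measured genes on the transcription factor list, 7 were higher and 3 lower in all 15 libraries, with a list median of 0.08. Among the higher, Foxc1 had a median of 212 CPM in endocardial and 23.3 CPM in vascular cells, Hand2 339 and 41.7 CPM, Gata4 76.4 and 0 CPM, and Gata6 158 and 35.7 CPM. Among the lower, Mef2c, also a factor of cardiac development, had 161 CPM in endocardial and 329 CPM in vascular cells. The flow-induced factor Klf2 had 433 CPM (245 to 1028) in endocardial and 69.8 CPM (0 to 214) in vascular cells, without overlap. It did not set endocardial apart from valve cells. Without thinning, its mean was 552 CPM in KO and 357 CPM in WT endocardial cells, and 574 and 384 CPM in valve cells. Ece1 had 1547 CPM (929 to 2294) in endocardial and 283 CPM (69.8 to 618) in vascular cells, again without overlap. The neuregulin gene Nrg1, below the level filter, had 43.2 CPM in endocardial and 0 CPM in vascular cells. Nfatc1, a factor often used to mark endocardium, separated the classes less: 82.7 CPM in endocardial and 47.1 CPM in vascular cells, higher in 13 of 15 libraries.

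Imprinted growth regulators formed another set with higher levels in endocardial cells, in 6 of the 10 measured (list median 1.52). Cdkn1c, which encodes the cell cycle inhibitor p57, had 4271 CPM (2030 to 6784) in endocardial and 580 CPM (167 to 891) in vascular cells. Dlk1, a Notch-like surface protein, had 347 CPM (238 to 566) in endocardial and 35.7 CPM (0 to 185) in vascular cells. The non-coding H19 transcript had 27490 CPM in endocardial and 8240 CPM in vascular cells, and Igf2 9197 and 3116 CPM. These genes were higher in endocardial cells of all 15 libraries.

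Of 14 measured vascular markers outside the gate, 5 were lower in all 15 libraries and 2 (Fabp5 and Nr2f2) were higher, with a list median of −2.38. The genes lower in all 15 libraries also included 5 of 21 mitosis and 3 of 24 immediate early genes. Sparcl1, a matrix protein, had 72.3 CPM (31.5 to 163) in endocardial and 1620 CPM (1000 to 2267) in vascular cells. The tight junction gene Cldn5 had 18.3 CPM (3.17 to 33.0) in endocardial and 354 CPM (233 to 587) in vascular cells. Btnl9 had 9.62 CPM in endocardial and 283 CPM in vascular cells, and Gpihbp1, which carries lipoprotein lipase into capillaries, 21.4 and 400 CPM. Kdr, the main receptor for VEGF, was also lower, at 324 CPM (187 to 433) in endocardial and 671 CPM (250 to 971) in vascular cells, as was the Notch ligand Dll4 at 41.0 and 125 CPM. Of the pan-endothelial list, 4 of 18 genes were higher and 7 lower in all 15 libraries.

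Against valve endothelial cells the differences were fewer: 142 of 4488 genes (3.16%) were higher in all 15 libraries and 91 (2.03%) lower, with 36 to 65 thinned valve cells per library. Cdkn1c again stood high, at 4271 CPM in endocardial and 279 CPM (108 to 750) in valve cells. Tmem100, an endothelial target of BMP signalling, had 198 CPM (88.2 to 251) in endocardial and 16.4 CPM (0 to 42.6) in valve cells. Plvap had 404 CPM in endocardial and 40.0 CPM (0 to 93.0) in valve cells. The classes did not overlap for any of these 3. The basement membrane collagen gene Col4a1 had 993 CPM in endocardial and 365 CPM in valve cells.

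Genes of cushion matrix and mesenchyme were lower in endocardial than in valve cells. Vcan, the proteoglycan versican of the cushions, had 130 CPM (64.0 to 250) in endocardial and 1000 CPM (651 to 1447) in valve cells. Hbegf, an EGF receptor ligand, had 115 CPM (63.7 to 259) in endocardial and 746 CPM (472 to 1312) in valve cells, and Prnp had 37.0 and 558 CPM. The factors Tbx20 (46.8 CPM in endocardial, 281 CPM in valve cells) and Prox1 (70.9 and 175 CPM) were also lower. Of the mesenchyme markers, 8 of 11 measured were lower in all 15 libraries, with a list median of −1.43 beside 0.00 over all genes. Postn took a middle place, with 652 CPM in endocardial, 140 CPM in vascular and 1800 CPM in valve cells, while Foxc1 was highest in endocardial cells of the 3 classes (212 CPM in endocardial, 102 CPM in valve cells).

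**Figure D1:**
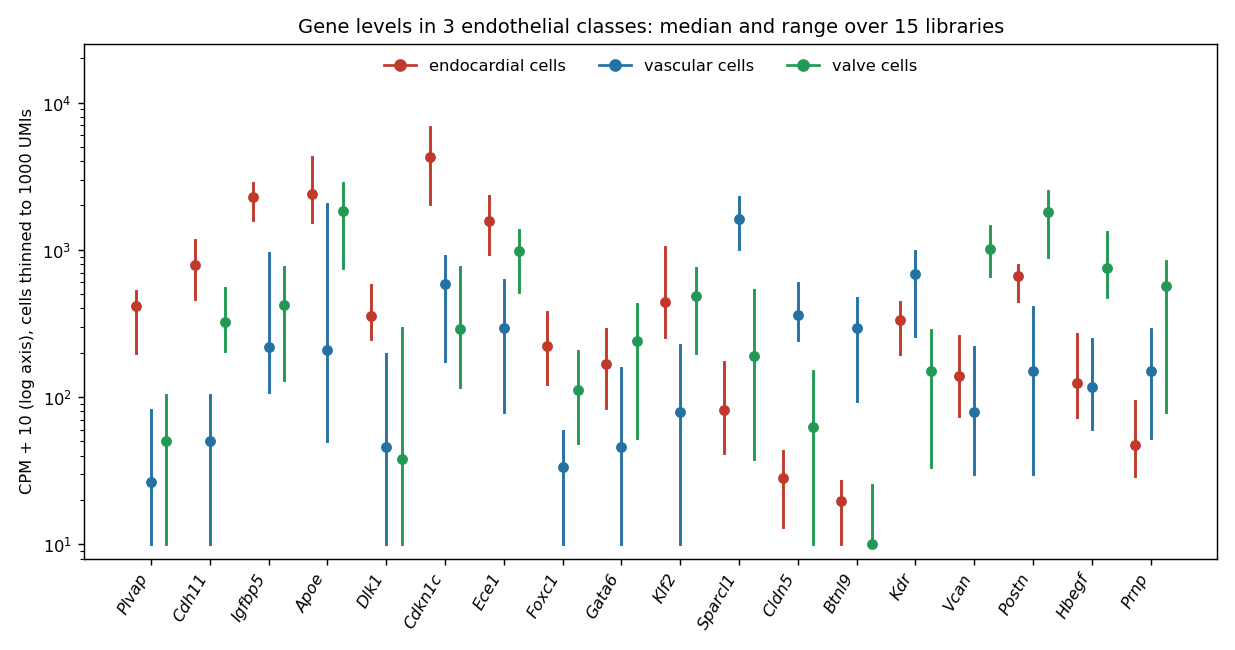
Levels of 18 genes outside the rule in endocardial, vascular and valve endothelial cells, as CPM + 10 on a log axis after thinning each cell to 1000 UMIs; points are medians and lines the range over 15 libraries. Plvap lies at 404 CPM in endocardial cells, against 16.7 in vascular and 40.0 in valve cells, and Cdkn1c at 4271 CPM, against 580 and 279.

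RNA of mitosis genes was seen in fewer endocardial than vascular cells. At least 2 UMIs of 22 mitosis genes were seen in 961 of 4034 thinned endocardial cells (23.8%, exact 95% interval 22.5 to 25.2%), in 457 of 834 vascular cells (54.8%, 51.4 to 58.2%) and in 224 of 784 valve cells (28.6%, 25.4 to 31.9%). These intervals pool cells over libraries and cover counting error only. Library by library, the endocardial share was below the vascular share in all 15, while its order with the valve share varied. No test is given, since the rule drew the classes.

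Within the endocardial cells, clustering gave 11 subgroups, described here by their leading genes. Subgroup 3, with 937 cells, was led by Pla2g7, Adh1 and Dlk1, and subgroup 8, with 911 cells, by the neuropeptide gene Nts, Gap43, Mfap5 and Igfbp5. Ednrb was highest in subgroup 8, at 3074 CPM. Subgroup 2, with 565 cells, was led by Ccdc3 and Etnk1 and had the highest Npr3 (1423 CPM) and Plvap (740 CPM), while Plvap was at 211 CPM in subgroup 8. Subgroup 4, with 843 cells, was led by the heat shock genes Hspa1a and Hspa1b, and Jun, Rhob and Atf3 were among its 10 leading genes. Subgroup 7, with 662 cells, was led by the mitosis genes Nusap1, Ube2c and Top2a. Subgroup 5, with 439 cells, had shallow cells (median 643 UMIs) and no leading gene above 175 CPM.

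The remaining 5 subgroups were led by genes of other cell types and held 758 cells (14.8%). Subgroup 1, with 255 cells and a median of 3975 UMIs, was led by the fibroblast genes Dcn and Col1a1 and had Plvap at 73.6 CPM. Subgroup 9, with 294 cells, was led by Cldn11, Aqp1 and Fst. Subgroup 6, with 82 cells, was led by Samsn1, Kcne3 and Cldn5. Its 10 leading genes also held the vascular marker Igfbp3 and the lymphatic markers Mmrn1 and Ccl21a. Subgroup 10, with 101 cells, was led by haemoglobin genes, and 40.6% of it came from WT replicate 4. The cardiomyocyte genes Ankrd1 and Myh7 were also among its 10 leading genes. Subgroup 11, with 26 cells, was led by myeloid genes such as S100a8 and C1qb. Scrublet, a doublet caller, marked 128 of all barcodes (0.251%) and 13 endocardial cells, which is too few for it to have worked, and the KO to WT comparison was also run without these 5 subgroups.

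The share of endocardial cells did not differ detectably between genotypes. Endocardial cells made up 63.9 ± 6.99% of thinned endothelial cells in KO and 66.7 ± 4.27% in WT libraries (mean ± SD, n = 8 and 7; two-sided exact permutation p = 0.377, adjusted over 3 share tests 0.711), and 61.6 ± 6.53% and 62.8 ± 4.87% without thinning (exact permutation p = 0.707). Of all barcodes with at least 300 genes they made up 10.24 ± 1.68% in KO and 10.03 ± 2.42% in WT libraries (exact permutation p = 0.848, adjusted 0.848). The difference of 0.212 percentage points turned to −0.160 without KO replicate 3, and to −0.219, −0.0971 and −0.102 without WT replicates 1, 2 and 3. The share of endocardial cells with at least 2 mitosis UMIs was 23.1 ± 4.37% in KO and 25.1 ± 5.90% in WT libraries at equal depth (exact permutation p = 0.474, adjusted 0.711), and 34.3 ± 7.53% and 40.6 ± 11.2% without thinning. The smallest p these 15 libraries allow is 0.000155.

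**Figure D2:**
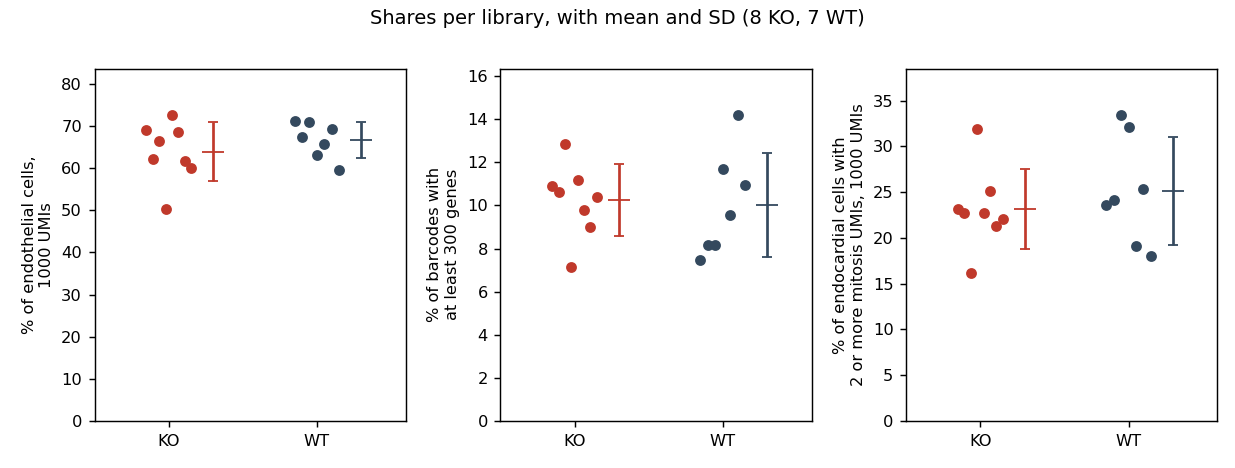
Endocardial share of thinned endothelial cells, endocardial share of all barcodes with at least 300 genes, and share of thinned endocardial cells with at least 2 mitosis UMIs, in percent, 1 point per library with mean and SD for KO and WT. KO and WT overlap in all 3 panels, with means of 63.9 and 66.7%, 10.24 and 10.03%, and 23.1 and 25.1%.

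In KO endocardial cells, 3 immediate early genes and the cell cycle inhibitor gene Cdkn1c were higher. So were the endothelin-converting enzyme gene Ece1 and the Notch-related ligand gene Efnb2. Lower were 9 genes of the cardiomyocyte marker lists, Nppa among them, and further muscle genes outside those lists. UMI counts were summed per library over the endocardial cells and tested with edgeR's quasi-likelihood test, and a gene was called at a Benjamini-Hochberg adjusted p below 0.05. Of 8830 genes tested, 55 (0.623%) were called: 25 (0.283%) were higher and 30 (0.340%) lower in KO than in WT. At an unadjusted p below 0.05 there were 1199. Libraries of a litter may resemble each other: with counts summed per litter (3 KO and 4 WT), 0 genes were called by edgeR (812 at an unadjusted p below 0.05). All 55 kept their sign, but they were chosen on the same libraries, so the sign is not separate evidence. The adjusted p per litter was then 0.104 for Rhob, 0.122 for Tnni3, 0.203 for Cdkn1c and for Nppa, 0.357 for Ece1 and 0.364 for Efnb2. The levels that follow are CPM over the tested genes scaled by TMM factors, given as lowest, median and highest library, and each fold change is the log2 of KO over WT with its standard error (SE).

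The count of 55 moved with single libraries. It was 11, 12, 16, 27, 27 and 29 without KO replicates 8, 5, 7, 4, 3 and 2, and 21, 23 and 31 without WT replicates 4, 5 and 2. It was 89 without WT replicate 1 and 221 without WT replicate 3. The genes Tnni3, Rhob, Tra2a, Gm10076, Nppa, Myom1, Slc20a1, Uqcrfs1 and Ckm passed in all 15 fits that left out a library. KO and WT did not overlap for 9 of the 55, namely Slc20a1, Pank4 and Tle1 among the higher and Tnni3, Myom1, Tnni1, Vti1b, Mvb12a and Tef among the lower genes, beside 0.238% of all tested genes. With flow cell in the fit, 9 of the 55 passed (Tnni3, Nppa, Tnnc1, Myl3, Gm7808, Csrp3, Myl2, Myh7 and Tmem64). That fit sets the KO libraries against WT replicate 5 alone, the 1 WT library on their flow cell, and the 55 genes were called with that library in the WT group.

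**Figure D3:**
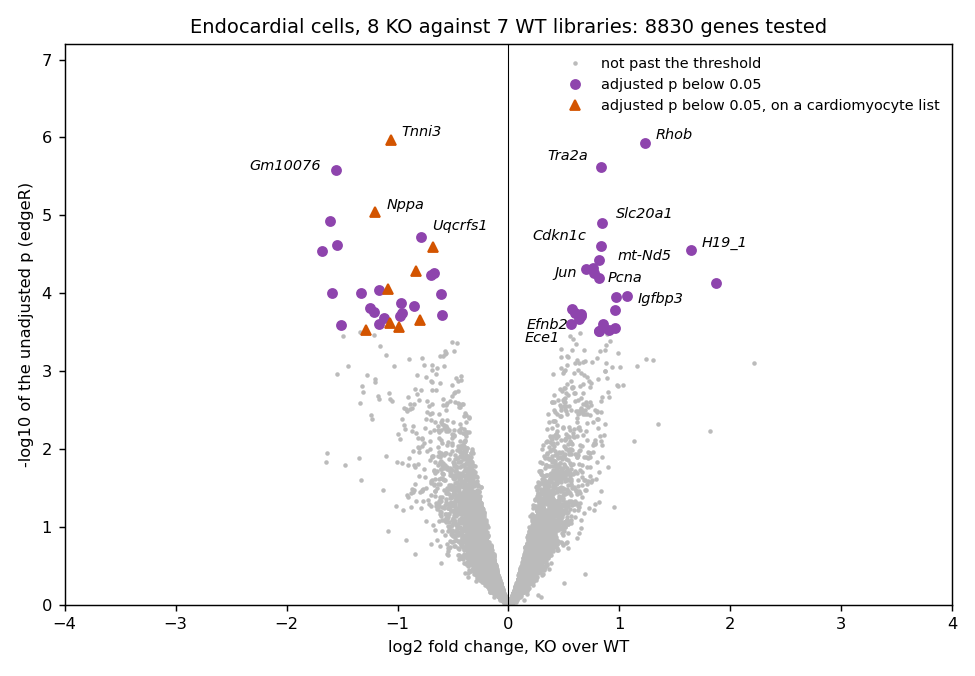
Log2 fold change of KO over WT (x axis) and −log10 p (y axis) for 8830 genes in endocardial cells, with the 55 called genes marked and members of the cardiomyocyte lists drawn as triangles. All called members of those lists lie on the lower side, with Tnni3 at −1.06 and Rhob at 1.23 the genes of smallest p on each side.

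Of the immediate early genes, which cells switch on within minutes of a stimulus, 3 of 25 tested were called, all higher in KO: Rhob, Jun and Nfkbiz. The list median was 0.25, beside −0.01 over all genes. Rhob, which encodes a small GTPase of endosomes, had 159, 255 and 443 CPM in KO and 77.4, 112 and 177 CPM in WT libraries. Only the top of WT reached into the range of KO. Its log2 fold change was 1.23 (SE 0.19, adjusted p = 0.00513), higher than the WT median in 8 of 8 KO libraries, and it was 1.83 (adjusted p = 0.174) with flow cell in the fit.

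Jun, which encodes a subunit of the AP-1 transcription factor, had 1271, 1895 and 2303 CPM in KO and 819, 1081 and 1595 CPM in WT libraries, with some overlap. Its log2 fold change was 0.77 (SE 0.16, adjusted p = 0.0259), and the call was lost without KO replicate 4, 5, 7 or 8 or WT replicate 5. Nfkbiz, an inhibitor of NF-κB, had 133, 231 and 388 CPM in KO and 56.1, 112 and 181 CPM in WT libraries (log2 0.97, SE 0.21, adjusted p = 0.0344). Its call was lost in 7 of the 15 fits that left out a library (KO replicates 2, 4, 5, 7 and 8, WT replicates 4 and 6). The summed immediate early list made up 0.574 to 1.31% of endocardial UMIs in KO and 0.468 to 0.907% in WT libraries. The 12 heat shock genes summed to 0.777 to 1.28% in KO and 0.688 to 0.916% in WT, with 0 of 12 called and a list median of 0.58, and 11 of the 12 had a positive log2 fold change. At an unadjusted p below 0.05 there were 10 of these 12, and DESeq2 called Hspe1. The 3 of smallest p were Hspe1 (log2 0.53), Hspa1b (2.21) and Hsph1 (0.99). With flow cell in the fit, which compares WT replicate 5 alone, they had 0.68, 7.03 and 2.47. The part of the heat shock genes in the change of the immediate early genes was not tested. Without the 5 subgroups of other cell types the log2 fold changes were 1.23 for Rhob (adjusted p = 0.0107) and 0.77 for Jun (adjusted p = 0.0362).

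Since Rhob and Jun were called together and stand side by side in the leading genes of subgroup 4, their promoters are shown, as RefSeq sequence of GRCm38.p6 covering the 250 bases before the transcription start. Both genes lie on the minus strand, and the sequences read 5′ to 3′ along the gene, Jun at chr4:95052223-95052472 and Rhob at chr12:8500010-8500259. Capitals mark motif matches.
Jun: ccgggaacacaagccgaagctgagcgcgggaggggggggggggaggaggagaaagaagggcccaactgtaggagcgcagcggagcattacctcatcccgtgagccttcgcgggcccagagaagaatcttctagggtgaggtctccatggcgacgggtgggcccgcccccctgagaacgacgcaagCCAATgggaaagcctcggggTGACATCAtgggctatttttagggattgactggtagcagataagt
Rhob: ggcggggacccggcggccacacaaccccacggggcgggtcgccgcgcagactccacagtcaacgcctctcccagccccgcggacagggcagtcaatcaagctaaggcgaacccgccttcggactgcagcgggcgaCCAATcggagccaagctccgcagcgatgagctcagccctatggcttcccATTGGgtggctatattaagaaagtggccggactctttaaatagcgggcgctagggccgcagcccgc
The motifs searched on both strands were the box CCAAT, the AP-1 variant TGACATCA, the cyclic AMP response element TGACGTCA, the TATA box TATAAA and the CArG box of the serum response element. Jun held a CCAAT starting at −65 and a TGACATCA at −45 from the start. Rhob held CCAAT on the gene's strand at −115 and on the opposite strand (ATTGG) at −66. Of 32851 promoters of the same length, 33.8% held CCAAT and 2.93% TGACATCA, while 1.55% held TGACGTCA, 12.4% TATAAA and 0.0609% the CArG box. The matches describe letters in these windows and nothing more.

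Cdkn1c (chr7:143458339-143461050, minus strand), which like Plvap set endocardial apart from both other endothelial classes, was higher in KO. It had 4424, 5018 and 7211 CPM in KO and 2186, 2719 and 4883 CPM in WT libraries. The overlap came from WT replicate 3 alone, at 4883 CPM, since the other WT libraries stayed at 3267 CPM or below. The log2 fold change was 0.83 (SE 0.16, adjusted p = 0.0193), and of the 15 fits that left out a library, the call was lost only in the fit without KO replicate 5. It was 0.74 (adjusted p = 0.0362) without the subgroups of other cell types and 1.07 (adjusted p = 0.310) with flow cell in the fit. Cdkn1c was the single called gene of 10 imprinted genes tested, whose list median was 0.15. Igf2 had 8284, 9385 and 10130 CPM in KO and 6740, 7221 and 8738 CPM in WT libraries (log2 0.30, adjusted p = 0.205), with the top of WT reaching into KO. A feature named H19_1, counted apart from H19 and possibly sharing its reads, was called higher in KO (log2 1.65, SE 0.32, adjusted p = 0.0193), but its call was lost without KO replicate 5 or 8, and it differed between the KO alleles (below). H19 itself had a log2 fold change of 0.47 (adjusted p = 0.0975). DESeq2 called H19 and Igf2 as well as Cdkn1c.

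In the endothelin and natriuretic peptide pathway, 1 of 8 tested genes was called higher and 1 lower. Ece1 (chr4:137862237-137965229, plus strand) had 1471, 1713 and 2234 CPM in KO and 937, 1165 and 1520 CPM in WT libraries. The highest WT library reached just above the lowest KO library, and the log2 fold change was 0.57 (SE 0.13, adjusted p = 0.0464). The call was near the threshold: it passed only without WT replicate 2 or 3 among the 15 fits that left out a library, and without the subgroups of other cell types it was 0.48 (adjusted p = 0.111). The receptor gene Ednrb had 1693, 2171 and 2696 CPM in KO and 1671, 1973 and 2321 CPM in WT libraries, largely overlapping (log2 0.17, adjusted p = 0.590). Npr3, the clearance receptor, had 655, 965 and 1091 CPM in KO and 506, 693 and 1110 CPM in WT libraries (log2 0.28, adjusted p = 0.463), and the ligand gene Edn1 99.6, 144 and 197 CPM in KO and 77.4, 96.2 and 140 CPM in WT (log2 0.49, adjusted p = 0.155). The groups overlapped for all 3. Ednrb, Npr3 and Edn1 are in the rule, which bounds what their levels can do.

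The ligand gene Nppa was the lower call of this pathway. It had 75.9, 115 and 209 CPM in KO and 179, 246 and 431 CPM in WT libraries, with little overlap, and its log2 fold change was −1.20 (SE 0.22, adjusted p = 0.0159), or −0.94 (adjusted p = 0.0462) without the subgroups of other cell types. With flow cell in the fit, where WT replicate 5 is the 1 WT library compared and had the highest Nppa of all (431 CPM), it was −1.80 (adjusted p = 0.0293). Nppa is also a cardiomyocyte gene and moved with the cardiomyocyte list.

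Of the 30 lower genes, 9 were on the cardiomyocyte lists. Of 13 tested markers outside the rule, 7 were called lower and 0 higher (list median −0.81). Of the 7 cardiomyocyte genes of the rule, 2 were called lower (Tnni1 and Tnnc1, list median −0.69). The rule held the sum of those 7 genes under 2% of UMIs in each cell, which bounds what their levels can do. Tnni3, which encodes cardiac troponin I, had 36.1, 51.6 and 68.6 CPM in KO and 69.8, 115 and 140 CPM in WT libraries. The groups did not overlap, and the log2 fold change was −1.06 (SE 0.17, adjusted p = 0.00513), or −1.37 (adjusted p = 0.0400) with flow cell in the fit. The slow troponin I gene Tnni1 had 141, 187 and 213 CPM in KO and 219, 279 and 365 CPM in WT libraries, again without overlap (log2 −0.68, adjusted p = 0.0193), and its call was lost without KO replicate 5 or 8. DESeq2 called Actc1, Tnnc1, Tnni1 and Tnnt2 of the 7 genes of the rule. The other calls on these lists were Tnnc1 (−0.83), Myl3 (−1.09), Myl2 (−0.80), Myh6 (−1.07), Myh7 (−0.99) and Actn2 (−1.28), of sarcomere proteins. Each of these 6 was lost in at least 5 of the 15 fits that left out a library. Muscle genes outside the lists were also called lower: Myom1 (−1.61), Ckm (−1.55), Casq2 (−1.33), Mybpc3 (−1.25), Des (−1.22) and Csrp3 (−0.96). Myom1 and Ckm passed in all 15 of those fits.

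The sum of the 15 cardiomyocyte markers outside the rule was 0.125 to 0.185% of endocardial UMIs in KO and 0.163 to 0.348% in WT libraries, and that of the 7 genes of the rule 0.118 to 0.217% and 0.152 to 0.336%. None of these genes was at 0 in all libraries. The part of RNA from other cells in these changes was not tested. Without the 2125 cells that held UMIs of other cell types or haemoglobin, edgeR called 44 genes, 29 higher and 15 lower. Of the 55 genes, 26 were among them. Removing the 5 subgroups of other cell types left 29 of the 55 genes called. Of the 9 on the cardiomyocyte lists, Tnni3 (−1.06, edgeR adjusted p = 0.00966), Nppa, Tnni1, Tnnc1 and Myl3 stayed called. Myl2 (edgeR adjusted p = 0.0666), Myh6 (0.0747), Myh7 (0.0517) and Actn2 (0.105) missed the threshold, with log2 fold changes from −1.16 to −0.77. Among the muscle genes outside those lists, Ckm and Mybpc3 stayed called and Csrp3 missed the threshold. Myom1, Casq2 and Des were not tested in that fit. Of the subgroups removed, subgroup 10 had the cardiomyocyte genes Ankrd1 and Myh7 among its 10 leading genes, below the haemoglobin genes. Among the lists of other cell types the medians were −1.34 over 6 erythroid genes, −0.52 over 10 mesenchyme genes, −0.48 over 6 mural genes and −0.29 over 3 macrophage genes, with 0 called in each by edgeR (4, 3, 1 and 0 at an unadjusted p below 0.05; DESeq2 called Lum). The median was 0.36 over 7 valve markers (0 called, 3 at an unadjusted p below 0.05), −0.0015 over 4 lymphatic markers (0 called) and −0.05 over 8 vascular markers, of which Igfbp3 was called higher. The sums were 0.0763 to 0.715% of UMIs in KO and 0.0395 to 2.67% in WT for erythroid, and 0.223 to 0.515% in KO and 0.229 to 0.479% in WT for mesenchyme genes.

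Uqcrfs1, the iron-sulphur subunit of respiratory complex III, had 73.3, 105 and 130 CPM in KO and 125, 202 and 223 CPM in WT libraries (log2 −0.79, SE 0.15, adjusted p = 0.0193), nearly without overlap. It was the called gene of 34 nuclear genes of oxidative phosphorylation, 30 of which had a negative log2 fold change (list median −0.24). At an unadjusted p below 0.05 there were 16 of the 34, and DESeq2 called Atp5b, Atp5l, Cox5a, Cox5b and Uqcrfs1. Of the 7 tested mitochondrially encoded genes mt-Nd5 was called, in the opposite direction, with 1404, 1985 and 2618 CPM in KO and 623, 1063 and 1627 CPM in WT libraries (log2 0.82, adjusted p = 0.0235). Its call was lost without KO replicate 5 or 8 or WT replicate 5, and the groups overlapped. DESeq2 called mt-Nd2 as well.

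In the Notch and neuregulin list edgeR called 1 of 14 tested genes, and DESeq2 called Efnb2, Hbegf and Notch4. Efnb2, which encodes the ephrin-B2 ligand and is a target of Notch in endothelium, had 156, 213 and 276 CPM in KO and 96.5, 126 and 190 CPM in WT libraries. The ranges overlapped in part, and the log2 fold change was 0.65 (SE 0.15, adjusted p = 0.0423). The call held only without KO replicates 1 or 2 or WT replicates 1 or 3 among the fits that left out a library, and without the subgroups of other cell types it was 0.60 (adjusted p = 0.0861). The receptor gene Notch4 had 28.1, 50.9 and 62.0 CPM in KO and 16.9, 24.1 and 42.6 CPM in WT libraries, where WT replicate 1 alone exceeded 26.4 CPM (log2 0.89, adjusted p = 0.0510, not called by edgeR).

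Among other single genes, Slc20a1, a phosphate transporter, had 64.7, 88.1 and 109 CPM in KO and 34.3, 52.7 and 57.1 CPM in WT libraries, without overlap (log2 0.84, SE 0.15, adjusted p = 0.0159). Tra2a, a splicing regulator, had 252, 348 and 408 CPM in KO and 140, 173 and 268 CPM in WT libraries (log2 0.84, SE 0.14, adjusted p = 0.00578). Both passed in all 15 fits that left out a library. Pcna, the sliding clamp of DNA polymerase, had 183, 286 and 319 CPM in KO and 109, 153 and 229 CPM in WT libraries (log2 0.76, adjusted p = 0.0259), with its call lost without KO replicate 5, 7 or 8 or WT replicate 4. It was the single called gene of 25 DNA replication genes (list median 0.11), and 0 of 22 mitosis genes were called (0.15, with 2 at an unadjusted p below 0.05 and 0 by DESeq2). Igfbp3, on the vascular marker list, had 33.2, 76.8 and 111 CPM in KO and 19.1, 36.1 and 51.1 CPM in WT libraries (log2 1.07, adjusted p = 0.0341), a call lost in 8 of the 15 fits (KO replicates 4, 6, 7 and 8, WT replicates 2, 4, 5 and 7). The remaining genes among the 25 of smallest p were the mitochondrial tRNA gene mt-Ty (1.87, 7.75 to 34.5 CPM in KO and 0 to 12.6 CPM in WT), Snhg9 (0.82) and Zc3h7a (0.70), which were higher, and Mir692-1 (−1.68), Gm26924 (−1.16), Gm1673 (−0.70) and Casq2 (−1.33), which were lower. Casq2 encodes calsequestrin, a calcium store protein of heart muscle. Each of these 7 overlapped between KO and WT, and each call was lost in 2 to 8 of the fits that left out a library.

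**Figure D4:**
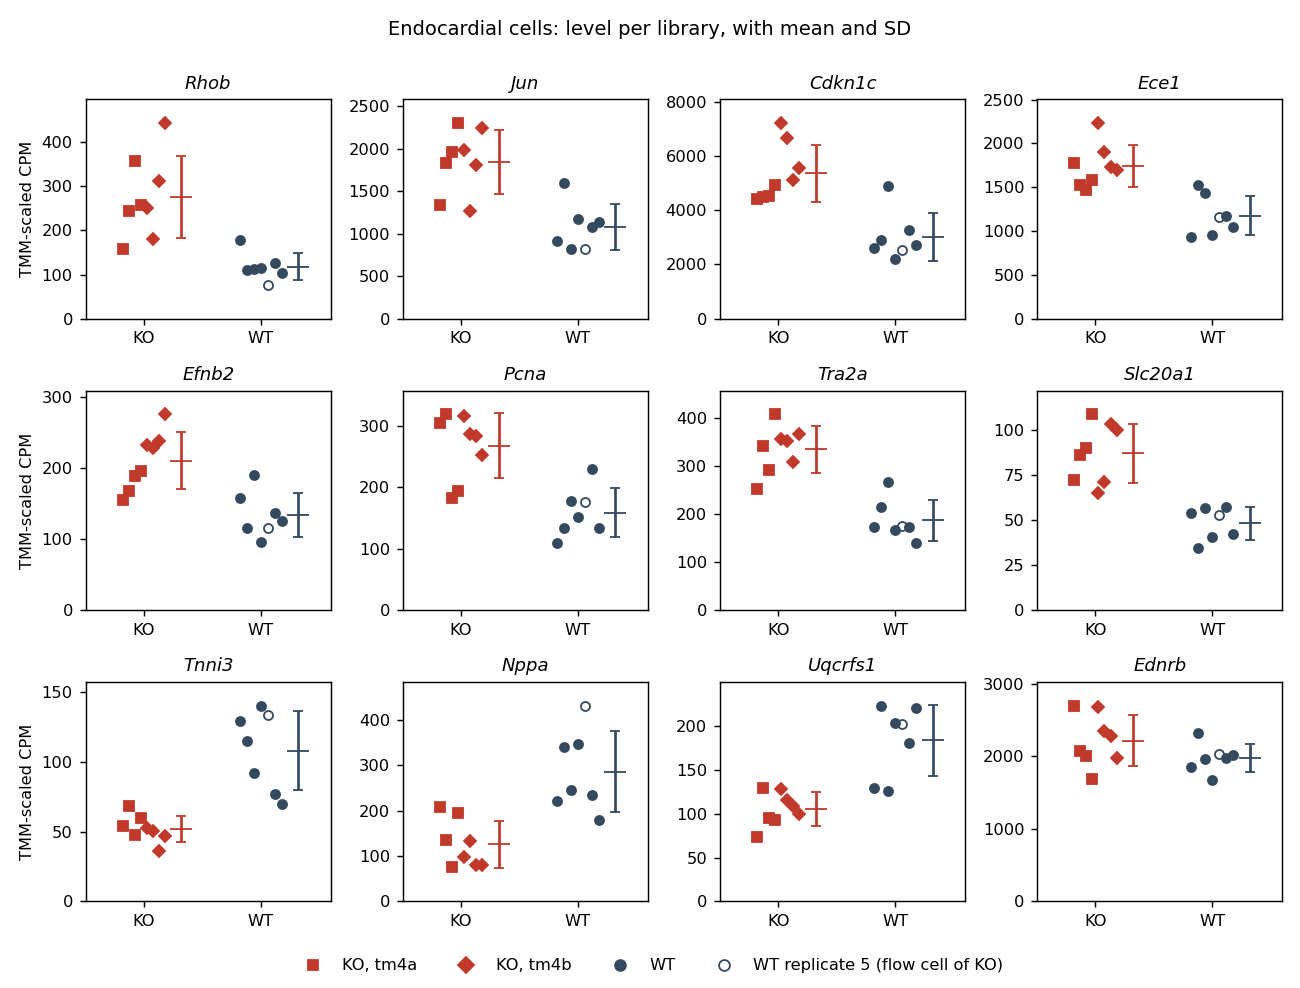
CPM per library of 12 genes in endocardial cells of KO (tm4b diamonds, tm4a squares) and WT hearts (circles, open for WT replicate 5 on the KO flow cell), with mean and SD. Tnni3 lies at 36.1 to 68.6 CPM in KO and 69.8 to 140 CPM in WT without overlap, while Ednrb overlaps at 1693 to 2696 and 1671 to 2321 CPM.

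Endocardial identity and signalling genes were for the most part not called. Of 15 endocardial markers outside the gate 0 were called (list median 0.02), as were 0 of 18 pan-endothelial genes (0.07), 0 of 21 transcription factors (0.03), 0 of 18 BMP and TGF-β genes (0.10), 0 of 14 VEGF and angiopoietin genes (0.04), 0 of 16 basement membrane genes (0.08), 0 of 12 genes of mesenchymal transition (−0.09) and 0 of 4 Adamts genes (0.09). At an unadjusted p below 0.05 in edgeR these 8 lists held 2, 2, 5, 2, 2, 1, 4 and 1 genes, and DESeq2 called Dkk3, an endocardial marker, alone among them. Plvap had 223, 369 and 507 CPM in KO and 228, 371 and 424 CPM in WT libraries (log2 0.11, adjusted p = 0.831), with near identical medians. Emcn (0.14, adjusted p = 0.735), Klhl4 (0.06, adjusted p = 0.852) and Gpr126 (0.35, adjusted p = 0.335) were not called by edgeR either. The rule used Emcn, Klhl4 and Gpr126, which bounds what their levels can do. The signs of Plvap, Emcn and Klhl4 turned with flow cell in the fit.

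The flow-response list had 0 of 16 genes called by edgeR (list median 0.10), with 6 at an unadjusted p below 0.05 and 0 by DESeq2. Klf2 had 363, 556 and 915 CPM in KO and 256, 283 and 586 CPM in WT libraries, all KO libraries above the WT median, but the groups overlapped (log2 0.62, SE 0.21, adjusted p = 0.168). Foxc1, the forkhead factor raised in endocardial against vascular cells, had 192, 264 and 323 CPM in KO and 93.8, 136 and 295 CPM in WT libraries (log2 0.67, adjusted p = 0.0924). Hbegf had a log2 fold change of 0.75 (edgeR adjusted p = 0.0717).

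Whether the genotype effect differed between endothelial classes was tested in a fit with the library as a block. Of 7086 genes, 1 (0.0141%) differed between endocardial and vascular cells: Cyr61, a matrix protein gene that is a target of YAP. In endocardial cells Cyr61 averaged 283 ± 123 CPM in KO and 146 ± 53.8 CPM in WT libraries (SD, n = 8 and 7, CPM of the class's UMIs). In vascular cells it averaged 244 ± 69.2 CPM in KO and 251 ± 81.6 CPM in WT libraries. The KO effect was 0.98 higher on the log2 scale in endocardial cells (SE 0.15, adjusted p = 0.00142), and 0.89 to 1.03 in the 15 fits that left out a library, all of which called it. Those fits called up to 2 further genes, Rhob among them without WT replicate 4 (1.09, adjusted p = 0.0157). Within endocardial cells alone its log2 fold change of 0.92 missed the threshold in edgeR (adjusted p = 0.0579) and was called by DESeq2, and within vascular cells it was −0.08. With each cell thinned to 1000 UMIs the difference was 0.97 with an adjusted p of 0.230, and the single called gene was then Apoe (1.95).

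For Rhob (difference 0.97, SE 0.22, adjusted p = 0.194), Klf2 (1.09, SE 0.26, adjusted p = 0.194) and Jun (0.64, SE 0.21, adjusted p = 0.539) the difference from vascular cells did not pass. For Cdkn1c the difference was 0.13 (SE 0.17) from vascular and −0.18 (SE 0.26) from valve cells, with log2 fold changes of 0.56 within vascular and 1.08 within valve cells, neither called. Nppa changed in vascular cells as well (−1.36, adjusted p = 0.00466), where it was the 1 lower gene of 3908 (0.0256%) and Kif23 the 1 higher gene (0.0256%, or 0.0512% in all), and the difference from endocardial cells was 0.11 (SE 0.21). Tnni3 had −0.94 in vascular and −1.03 in valve cells, neither called. Among 3962 genes 7 (0.177%) were called in valve cells, 1 higher (0.0252%) and 6 lower (0.151%). The higher gene was Usp15 (0.94). The lower were the haemoglobin genes Hba-a2 (−3.34), Hba-a1 (−3.24), Hbb-bt (−2.64) and Hbb-bs (−2.36), with Gm10076 (−1.46) and Cox5a (−1.04). Gm10076 was also called lower in endocardial cells.

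Against valve cells, 1 of 6734 genes (0.0149%) differed, the carbonic anhydrase gene Car3 (−6.58, SE 0.73, adjusted p = 1.57e-06). It rests on few molecules: in endocardial cells it had 5 UMIs over all KO and 76 over all WT libraries, and in valve cells 202 in KO and 18 in WT. KO replicate 7 alone reached 608 CPM in valve cells, and without that library the difference was −5.34 (adjusted p = 0.000234). It was −7.43 to −6.04 without any 1 of the other libraries, and Car3 was called in all 15 fits. Without WT replicate 4, Cyr61 (1.11), Hspb1 (2.50) and Jun (0.85) were called as well. Without WT replicates 1 to 4 it was −5.18 (adjusted p = 0.979), and the genes then called were Cyr61 (1.68), Hspa1a (3.89) and Hspb1 (3.50). In the main comparison with valve cells Cyr61 had a difference of 0.96 (SE 0.21, adjusted p = 0.124), at 1122 ± 360 CPM in KO and 1190 ± 438 CPM in WT valve cells.

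**Figure D5:**
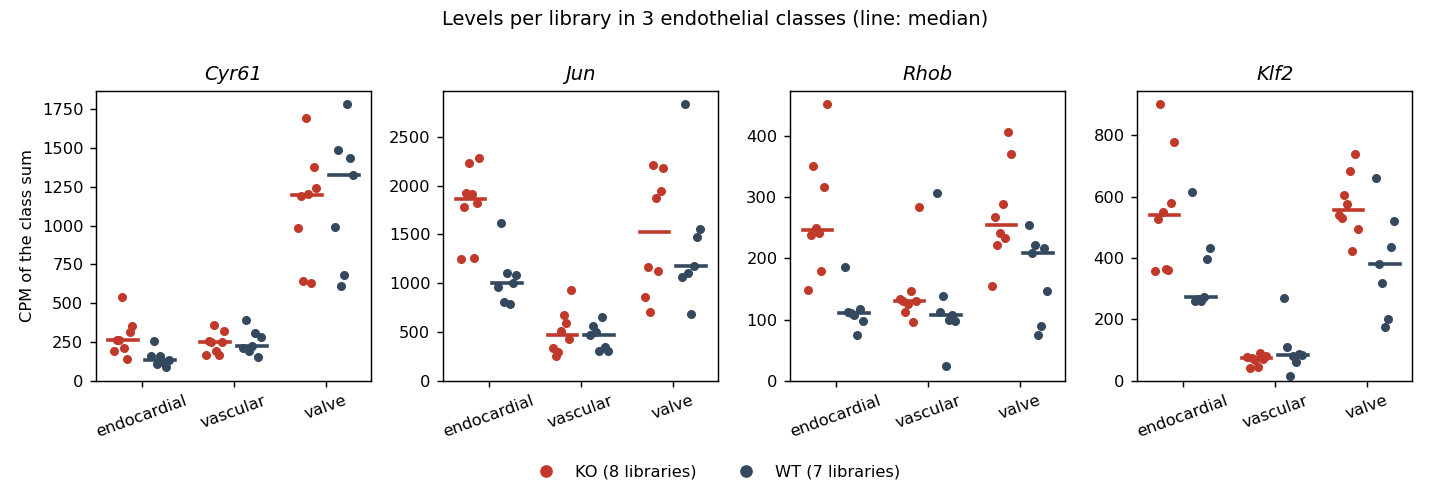
CPM per library of Cyr61, Jun, Rhob and Klf2 in endocardial, vascular and valve endothelial cells, KO left of WT, with the median as a line. Cyr61 averages 283 CPM in KO and 146 in WT endocardial cells, but 244 and 251 CPM in vascular cells.

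Endocardial cells of the 2 KO alleles, sequenced on a shared flow cell, also differed from each other: 67 of 8788 genes (0.762%) were called between the 4 tm4b and the 4 tm4a libraries, 34 (0.387%) higher and 33 (0.376%) lower in tm4b. The leading gene was H19_1, with 240, 204, 147 and 185 CPM in tm4b replicates 5 to 8 and 94.4, 71.1, 50.6 and 41.4 CPM in tm4a replicates 1 to 4, without overlap (log2 tm4b over tm4a 1.53, SE 0.20, adjusted p = 0.00271). Tmsb10, which binds actin monomers, averaged 1295 ± 192 CPM in tm4b and 2507 ± 494 CPM in tm4a (SD, n = 4 each; log2 −0.94), and the glycolytic enzyme gene Aldoa 219 ± 19.99 and 403 ± 29.7 CPM (log2 −0.86). The count was 1 without KO replicate 7 (H19_1) and 2 without KO replicate 6 (H19_1 and Aldoa), 13, 20 and 25 without KO replicates 3, 2 and 8, and 119 without KO replicate 4. H19_1 was the single gene also among the 55 called between KO and WT.

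Cdkn1c averaged 6132 ± 968 CPM in tm4b and 4583 ± 236 CPM in tm4a libraries (SD, n = 4 each), which did not overlap, but the difference was not called (log2 0.43, adjusted p = 0.0804). Efnb2 averaged 244 ± 21.7 CPM in tm4b and 177 ± 19.04 CPM in tm4a, also without overlap and not called (log2 0.49, adjusted p = 0.0763). For Rhob (297 ± 111 and 255 ± 81.3 CPM) and Jun (1823 ± 409 and 1856 ± 402 CPM) the alleles overlapped. All 55 genes called between KO and WT had the same sign in each allele against WT. The genes were chosen on these same libraries, so the shared sign is not separate evidence. Against WT alone, tm4b libraries gave 10 called genes and tm4a libraries 0, with 701 at an unadjusted p below 0.05 for tm4a.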

How the data were processed

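Per the labels, Drop-seq was run on whole E14.5 hearts. The authors deposited a table of whole-number UMI counts per gene and barcode for 16809 genes, with no normalization, and its shallowest barcode has 251 genes. The submitters' processing notes name mm10, bcl2fastq 2.17 and Seurat 2.1, and the aligner was not given in the sources used here. Libraries were mapped to groups by their titles, and 0 columns belonged to no sample. The description of WT replicate 4 carries the number 3, and its title was used.

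Members, gene lists and tests were chosen with earlier results of these data known. UMI counts were summed per library over the cells of a class (at least 10 cells) and tested with edgeR 4.0.16 in R 4.3.3 (quasi-likelihood test, TMM factors, filterByExpr, Benjamini-Hochberg adjustment over all tested genes, threshold 0.05) over all 15 libraries. DESeq2 1.42.0 was an alternative. The difference of the genotype effect between classes was an interaction term with the library as a block, and tm4b was set against tm4a among the 8 KO libraries. Shares went into two-sided exact permutation tests (scipy 1.17.1). Thinning drew 1000 UMIs per cell and left out shallower cells. Class levels used log2(CPM + 10) and a minimum mean of 50 CPM. Subgroups came from 1500 variable genes, 20 principal components, 20 neighbours and Leiden resolution 0.5 (scanpy 1.11.5, igraph 0.11.9), and their leading genes were ranked by fold with 20 CPM added, over genes with a UMI in at least 5% of cells. Scrublet marked 0.251% of barcodes and so had not worked; leaving out the highest 5% of its scores per library was an alternative. The scripts were tested on simulated data.

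Genes eligible to be named were the gate genes, Emcn, Plvap, Adamts19 and LacZ, the 25 called genes of smallest p, called members and the 3 members of smallest p of each of 33 lists, and leading genes of the class comparisons and subgroups; not every eligible list member is named, and other called genes are named where a count is small. A leading gene of the class comparisons is not reported here. The alternatives were DESeq2, other scaling factors, no low-count filter, flow cell, litter, replicate number as a block, leaving out each library or WT replicates 1 to 4 together, thinning, stricter gates, and removal of doublet scores or of cells with UMIs of other types. Replicate numbers name libraries from different litters and do not pair them.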

Additional observations from a re-analysis of the deposited data

Results flagged for a closer look

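Among 98 groups of library values examined for a library far from the rest of its group, 8 held one; chance flags about 1 in 20 groups. Cdkn1c in WT replicate 3 lay at 4883 CPM, with the other WT libraries at 2186 to 3267 CPM. Gm26924 in WT replicate 1 lay at 687 CPM, with the others at 135 to 278 CPM. Notch4 in WT replicate 1 lay at 42.6 CPM, with the others at 16.9 to 26.4 CPM, and Hspa1b in the same library at 332 CPM, with the others at 1.55 to 141 CPM. Nfkbiz in KO replicate 4 lay at 388 CPM, with the other KO libraries at 133 to 244 CPM. In KO replicate 4, Myh6 lay at 116 CPM, with the others at 36.1 to 68.9 CPM, and Myh7 at 217 CPM, with the others at 75.3 to 132 CPM. Emcn in KO replicate 1 lay at 1026 CPM, with the others at 640 to 822 CPM.

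In 2 genes the genotype effect differed between classes by the test of the difference itself, in edgeR. Cyr61 had an effect 0.98 higher on the log2 scale in endocardial than in vascular endothelial cells, and Car3 an effect of −6.58 in endocardial relative to valve endothelial cells.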

How the results depend on the processing

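The 55 genes called between KO and WT became 140 with DESeq2 (54 shared), 92 without the low-count filter, 29 with thinned cells and 34 with under 1% of cardiomyocyte UMIs. Without cells with UMIs of other types they became 44 (26 shared), and without the 5 subgroups of other cell types 38 (29 shared). They became 18 with flow cell in the fit, 0 when summed per litter (812 at an unadjusted p below 0.05), 536 without WT replicates 1 to 4, the older libraries (37 shared), 0 for tm4a alone and 10 for tm4b alone. Leaving out a library gave 11 to 221. Replicate number as a block gave 2 genes (Tnni3 and Ttn); the correlation of same-numbered deviations lay between −0.35 and 0.06, so the numbers do not pair the libraries. Between tm4b and tm4a, the 67 genes became 121 with DESeq2, 229 without the filter and 1 to 119 without a library. The 1 gene of each class difference became 28 (vascular) and 24 (valve) without the filter, 1 to 3 (vascular) and 1 to 4 (valve) without a library (fits chosen after seeing the data), and for valve 3 without the older WT libraries and 0 with thinning (129 at an unadjusted p below 0.05). The difference in the endocardial share of all barcodes ran from −0.219 to 0.910 percentage points without a library (−0.160 without KO replicate 3, −0.0971 and −0.102 without WT replicates 2 and 3) and was −1.33 without the older WT libraries; that of mitosis cells was then 2.34. Uncalled genes that changed sign were Emcn (−0.0888 with flow cell, −0.143 without the older WT libraries, −0.0388 for tm4b alone), Plvap (−0.113, −0.103, and −0.0444 per litter) and Klhl4 (−0.0207 with flow cell, −0.00661 without the subgroups of other types, an alternative chosen after seeing the data, as were the fits per allele). Values of called genes under the alternatives kept their call in 655 cases, missed the threshold in 349 and reversed in 0. The alternatives used the libraries that chose these genes, so kept signs are not separate evidence. The causes were not tested. Endothelial barcodes per library, 24 to 92 for thinned vascular cells, limit the class comparisons.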
